A study of Mus musculus with 9 samples.

Results

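The clustered histone genes supply the bulk of new histones when chromosomes are copied. They were taken as the genes of the count table whose identifier carries, in GENCODE M21, a symbol that begins with Hist1h, Hist2h, Hist3h or Hist4. This gave 68 of 47937 genes, namely 6 H1, 20 H2A, 17 H2B, 12 H3 and 13 H4 genes. Of these, 54 carry a Hist1 symbol and lie on chromosome 13 (GRCm38), 10 lie in the Hist2 cluster (chr3:96219865-96270132), 3 in the Hist3 cluster (chr11:58948920-58956830), and Hist4h4 stands alone (chr6:136801553-136804415). Pseudogenes make up 3 of the 68 members.

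RNA was sequenced from mouse embryonic fibroblasts (MEF) of 3 genotypes, with 3 libraries each. Per the study's methods, WT cells are the clone Eset25 (E1c), with a conditional Eset1 allele and no induced loss of an H3K9 lysine methyltransferase (KMT). S1S2 cells are clone B1, made from it by CRISPR/Cas9 and lacking Suv39h1 and Suv39h2. G9Gl cells are clone H7, made in the same way and lacking G9a (Ehmt2) and Glp (Ehmt1). All 3 genotypes share the conditional Eset1 allele, and each mutant is a single clone, so that genotype and clone cannot be told apart. After the disruptions, the study re-introduced a tamoxifen-inducible Cre with a puromycin resistance gene and kept the lines under puromycin. That construct and selection cannot be told apart from genotype either, if WT lacked them. The sample titles name no tamoxifen treatment. The study calls the libraries of a genotype biological replicates, but no source says that they are separate cultures, and p-values then measure only the spread between these libraries. The comparisons ask which genes depend on either pair of H3K9 KMT.

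Clustered histone genes are known to be transcribed mainly in S phase, from promoters that NPAT serves, into short mRNAs without introns. Their mRNAs are not polyadenylated as a rule. They end shortly after a stem-loop that SLBP binds, and this structure governs processing, translation and decay. The libraries were made from total RNA depleted of ribosomal RNA, a method that does not select for poly(A). Core histones H2A, H2B, H3 and H4 form the nucleosome, and linker histone H1 binds the DNA between nucleosomes.

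The 6 forms of the stem-loop found in the annotated transcripts are shown first, because they are frequent among the members and separate H4 from the other types. Capitals mark the 16 bases of the stem-loop, written 5′ to 3′ with 5 bases on either side, from the GRCm38 transcript of 1 member each.
Hist1h2bf: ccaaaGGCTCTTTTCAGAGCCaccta
Hist1h3c: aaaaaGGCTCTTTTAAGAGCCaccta
Hist2h2ac: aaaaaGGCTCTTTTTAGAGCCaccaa
Hist4h4: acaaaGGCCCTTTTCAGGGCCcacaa
Hist2h4: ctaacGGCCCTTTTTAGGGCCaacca
Hist1h4b: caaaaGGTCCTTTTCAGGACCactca
The first form stood in 23 members of H1, H2A, H2B and H3, the second in 6 of H1, H2B and H3, and the third in Hist2h2ac alone. The last 3 forms stood in 7, 2 and 2 H4 genes. The search was for a 16-base pattern with 6 paired bases on either side of the loop, on the transcript strand. It was met in the longest transcript of 41 members and in 38 of the 55382 other genes scanned, or 0.0686%. Of 50 coding members whose transcript reaches over 10 bases past the stop codon, 41 held the pattern. For 15 members, Hist1h1b among them, the annotated transcript ends within 10 bases of the stop codon, and these windows cannot hold it.

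Promoter motifs differed in frequency between the histone types. Of the members, 59 were matched to a RefSeq promoter (GRCm38.p6, 250 bases before to 50 after the start), and motifs were searched on both strands. CCAAT stood in all 47 matched promoters of H1, H2A, H2B and H3 genes but in 3 of 12 H4 promoters, against 37.36% of 32544 promoters of the same length. TATAAA stood in 59.32% of members and 13.57% of all promoters. An octamer, the motif bound by POU2F1, stood in 7 H2A and 5 H2B promoters and in 1.751% of all. These are numbers of promoters and not of sites, since neighbouring H2A and H2B genes on opposite strands can hold the same bases. The octamer is common to Hist1h2ah and Hist1h2bk, to Hist1h2ae and Hist1h2bg, and to Hist1h2aa and Hist1h2ba. A TATAAA is common to Hist1h2ak and Hist1h2bn, among others. AAACACA, the H1 box, stood in 5 of 6 H1 promoters, in 3 other members (Hist1h2ab, and Hist1h2aa and Hist1h2ba at the same site) and in 7.196% of all. The exception among H1 genes was Hist1h1a, and the H1 windows are shown because that gene was also the sole clustered H1 gene that rose in G9Gl. Capitals mark the H1 box, or for Hist1h1a the CCAAT box.
Hist1h1b (chr13:21780726-21780752, minus strand): ggggactaacAAACACAatttgggatt
Hist1h1c (chr13:23738685-23738711, plus strand): gaagtgtaacAAACACAagttgggcgc
Hist1h1d (chr13:23554900-23554926, plus strand): gaggggcaacAAACACAgccacaaggc
Hist1h1e (chr13:23622657-23622683, minus strand): gaggtgtaacAAACACAactccgcatc
Hist1h1t (chr13:23695687-23695713, plus strand): gggggaaaagAAACACAaatgcccctc
Hist1h1a (chr13:23763602-23763626, plus strand): ttagcattcaCCAATcacagcacag
A match is a description of these letters and shows no binding, and their part in the levels was not tested.

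Libraries held between 21319778 and 32157623 counts, and a floor of 3 counts was worth 0.0922 to 0.141 CPM, the unit of level used here, which scales counts to the size of the library. Clustered histone genes took 1.06% to 1.22% of the counts of a library. Of 8 fibroblast markers, all 8 were above 1 CPM in every library, with summed means of 10481, 7386 and 8185 CPM in WT, S1S2 and G9Gl. Single markers differed more and in both directions. Col1a2 had means of 2394, 395 and 2028 CPM and Col3a1 of 1527, 190.0 and 844 CPM in this order, both lowest in S1S2, where Vim was highest with 1457, 2398 and 1250 CPM. Thy1 was highest in G9Gl, with means of 4.98, 2.05 and 38.3 CPM, while Pdgfra was highest in WT, with 14.5, 3.54 and 4.01 CPM. Of 4 leukocyte markers, 1 reached 1 CPM, Cd68 at 3.21 to 4.50 CPM, and Ptprc and Cd3e were at or near 0. Of 4 epithelial markers, 1 did, Krt8 with means of 0.138, 4.67 and 0.221 CPM in WT, S1S2 and G9Gl, while Epcam stayed at or below 0.322 CPM. Of 4 endothelial markers, 2 did, with at most 1.51 CPM. The part of these differences in the histone levels was not tested. Suv39h1 fell in S1S2 from 108 to 41.9 CPM. Suv39h2 was higher there, at 55.2 against 33.9 CPM, so its RNA does not check the label, since transcripts of a disrupted gene are counted too. Ehmt2 fell in G9Gl from 125 to 54.2 CPM and Ehmt1 from 103 to 50.2 CPM. In bulk RNA, fewer cells in S phase and less histone RNA per cell cannot be told apart.

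Near-identical copies and overlapping genes limit what a single gene can show. Over the exons of the members, the median share of 75-base stretches, the read length, that also occur in another annotated gene was 45.9%, and it was at least 50% in 32 members. The median was 71.5% for H2A, 59.0% for H3, 47.4% for H2B and 24.6% for H4 but 0.735% for H1. These shares count both strands and overlapping genes, so they are not of copies alone. Hist2h2bb shared 100% with any gene but 0% with other members, and Hist2h2ab 62.4% against 8.92%. Under 10% was shared by 9 members, namely Hist1h1a, Hist1h1b, Hist1h1c, Hist1h1d, Hist1h1t, Hist2h2be, Hist1h4d, Hist2h4 and Hist4h4. Reads that fit several copies can be split between them in the counting, so that values of the other members are uncertain gene by gene. The same holds for overlapping genes, since the use of strand is not stated. Hist2h2bb lies within the antisense gene Gm20628 over its whole length, Hist3h2a shares exons with Trim17, and Hist1h2be overlaps Hist1h1e. Trim17 held at most 0.138 CPM in any library and Gm20628 at most 4.58 CPM.

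**Figure D1:**
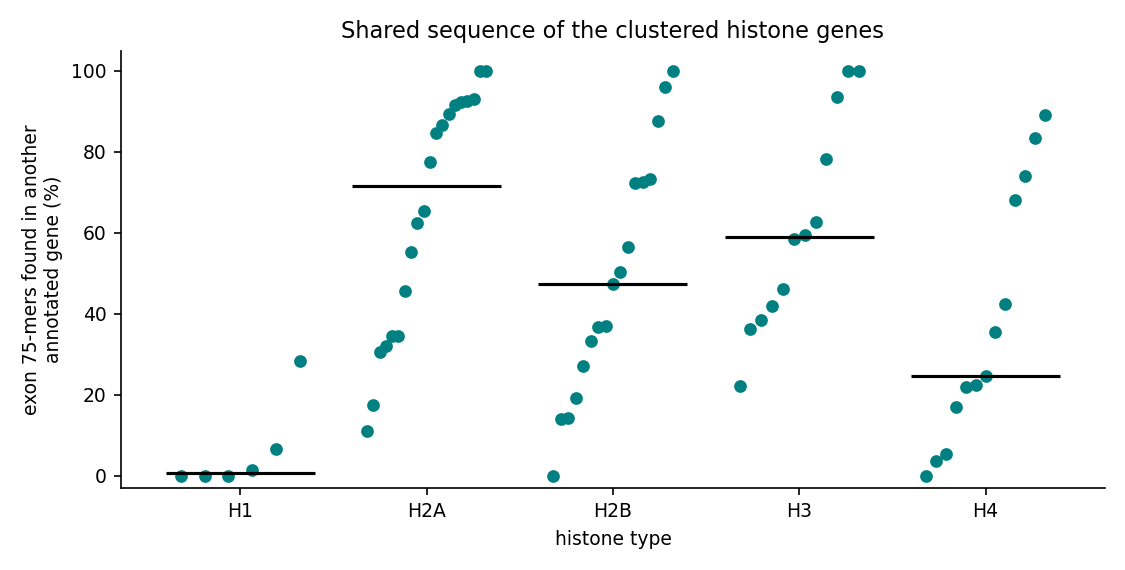
Percentage of the 75-base stretches of each member's exons that occur in another annotated gene, by histone type (1 point per member, n = 68, black lines are medians). H1 genes lie at or below 28.4%, and the H2A median of 71.5% is the highest.

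After the filter on low counts, 60 of the 68 members were tested among 15540 genes. Genes that differed at least 2 times with an adjusted p (edgeR, Benjamini-Hochberg) no higher than 0.01 are named as called. Rises and falls are those with an adjusted p up to 0.05, whatever their size. The 8 members not tested held at most 11 counts in any library. They include the testis genes Hist1h1t with at most 3 counts, Hist1h2aa with at most 4 and Hist1h2ba with at most 7 in any library. Hist2h3c1, whose sequence is fully shared with other genes, held 0 counts in all libraries.

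Histone output as a whole was close to level across the genotypes. The summed level of all 68 members was 12095, 11157 and 10344 CPM in WT, 11554, 11380 and 11359 CPM in S1S2, and 10805, 11118 and 11271 CPM in G9Gl. All 6 mutant libraries lay within the range of WT. The log2 ratio of the means was 0.03 for S1S2 and −0.02 for G9Gl against WT, and −0.05 between the mutants. Its sign turned with the WT libraries, from 0.089 without WT replicate 1 to −0.024 without WT replicate 3 for S1S2, and from 0.042 to −0.071 for G9Gl. H1, H2A, H2B, H3 and H4 genes took 2403, 1041, 2372, 1706 and 3676 CPM on average in WT. H2A sums were 1158 ± 11.2 CPM in S1S2 and 1167 ± 57.8 CPM in G9Gl against 1041 ± 109 CPM in WT (SD, n = 3), with log2 ratios of 0.15 and 0.17. The WT libraries held 1125, 1080 and 917 CPM, and replicate 3, the lowest, widens these ratios. Only in S1S2 did all 3 H2A sums exceed the highest WT library, at 1125 CPM. H4 sums were 3692 ± 59.3 CPM in S1S2 and 3486 ± 126 CPM in G9Gl, inside the WT range of 3210 to 4092 CPM.

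**Figure D2:**
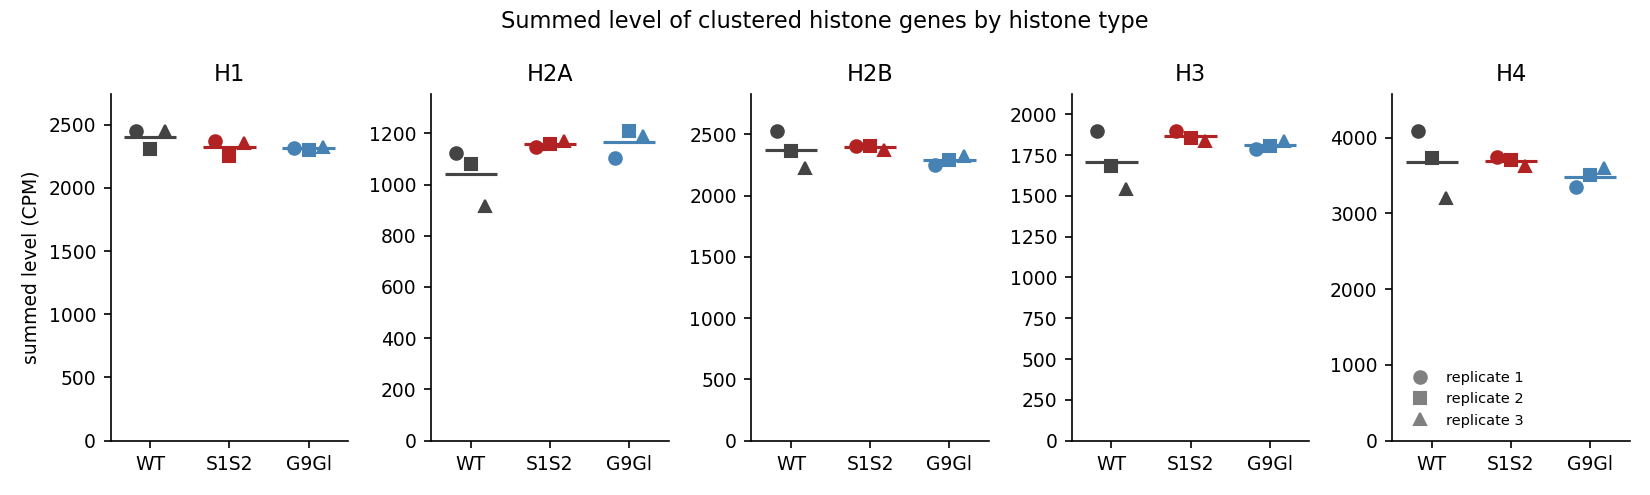
Summed level in CPM of the members of each histone type in every library (points, shape gives the replicate number, lines are means of 3 libraries). WT libraries spread widely for the core types, from 3210 to 4092 CPM for H4, while the H1 sums of all 9 libraries lie between 2248 and 2452 CPM.

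The WT libraries were unlike each other in core histone RNA. Of 43 core members with a mean of at least 10 CPM, WT replicate 1 was the highest WT library for 37 and WT replicate 3 the lowest for 40. The median coefficient of variation among WT libraries was 12.7% for H4, 12.3% for H2A, 11.4% for H3 and 6.92% for H2B genes, against 4.75% for all 9208 genes at this level. Among S1S2 libraries the same medians lay between 2.38% and 3.76%, and among G9Gl libraries between 2.66% and 5.56%. H1 genes varied by 4.19% in WT, close to other genes. The summed level of 20 S phase and replication genes was 3575, 3581 and 3696 CPM in the WT libraries, in the opposite order to the core histones. What set the WT libraries apart was not tested.

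No member was called in S1S2 or G9Gl against WT, where 9.0% and 10.2% of all tested genes were called. DESeq2 called 0 as well, and 29 and 31 members had an unadjusted p under 0.05 in edgeR. Between the mutants, 1 member was called, Hist3h2bb-ps, against 13.1% of all genes called and 5.08% called lower in G9Gl. DESeq2 called 1 there too, and 28 members had an unadjusted p under 0.05. Small differences were common. In S1S2, 16 members rose and 8 fell, 40.0% of those tested, against 48.9% of all genes, made up of 25.3% that rose and 23.6% that fell. In G9Gl, 13 rose and 14 fell, 45.0% against 45.9% of all genes, made up of 24.1% that rose and 21.8% that fell. Between the mutants, 6 were higher and 18 lower in G9Gl, 40.0% against 53.3% of all genes, made up of 26.9% that were higher and 26.5% lower. The libraries of the groups did not overlap for 22, 23 and 33 members in these 3 comparisons, against 56.0%, 52.8% and 60.8% of all genes. Over the tested members, the median log2 fold change was 0.096, −0.042 and −0.095 respectively, against −0.0032, −0.0067 and 0.00016 over all genes. Between −0.5 and 0.5 lay 95.0% of members in S1S2 and 93.3% in G9Gl, against 74.6% and 76.1% of all genes.

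Counts of rises and falls moved with single libraries of all genotypes and with a correction for GC content and length. In S1S2, 22 rose and 5 fell without WT replicate 1, 11 and 10 without WT replicate 3, 9 and 7 without S1S2 replicate 1, 11 and 5 without S1S2 replicate 2, and 7 and 13 with the correction. In G9Gl, 13 rose and 8 fell without WT replicate 1, 9 and 25 without WT replicate 3, 9 and 13 without G9Gl replicate 3, and 9 and 22 with the correction. Between the mutants, 4 were higher and 16 lower without S1S2 replicate 1, 7 and 19 without WT replicate 1, 8 and 22 without WT replicate 3, and the correction gave 14 higher and 22 lower. The median in S1S2 was 0.152 without WT replicate 1 and 0.039 without WT replicate 3. That in G9Gl was 0.003 without WT replicate 1, −0.102 without WT replicate 3 and −0.021 without G9Gl replicate 1, and that between the mutants −0.048 without G9Gl replicate 1. The correction moved the median of all genes to −0.11 in G9Gl, −0.013 in S1S2 and −0.096 between the mutants, and that of the members to −0.087, −0.018 and −0.064.

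**Figure D3:**
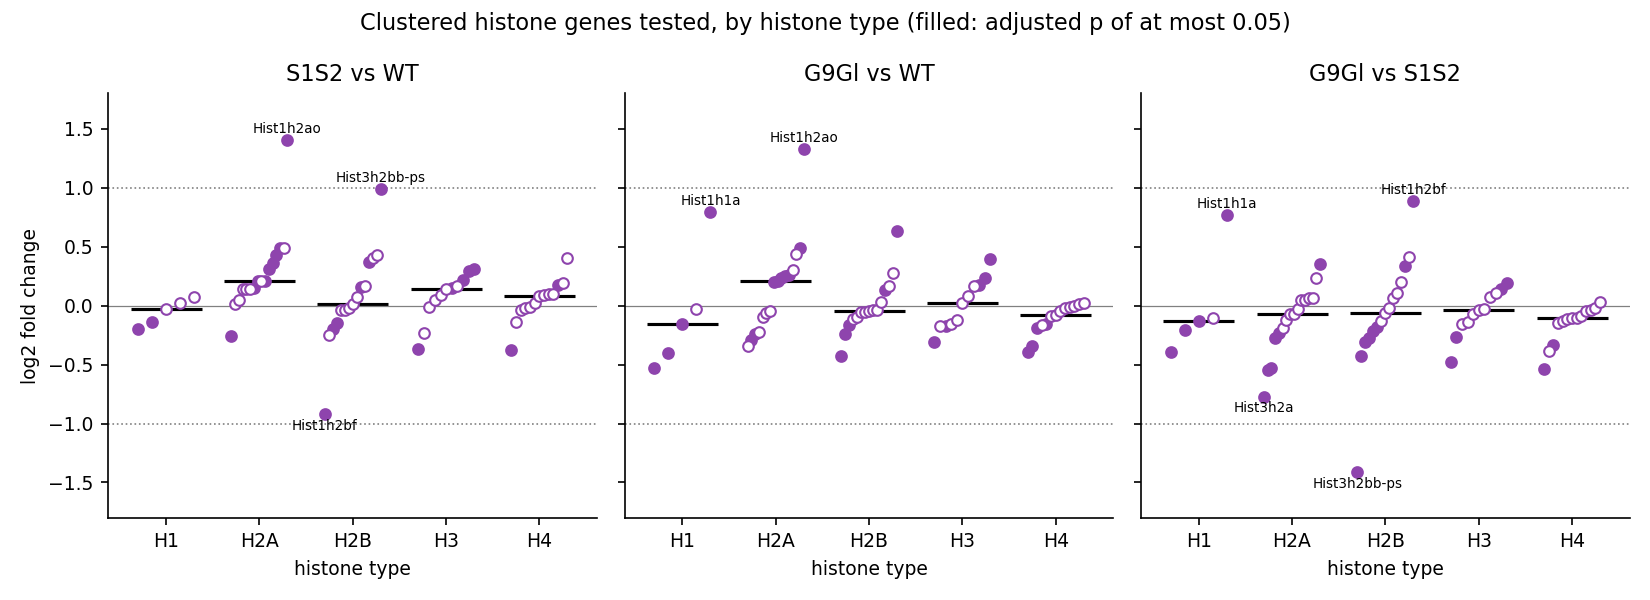
Log2 fold change of the 60 tested members by histone type in the 3 comparisons (filled points passed an adjusted p of 0.05, open points did not, black lines are medians, dotted lines mark a fold change of 2). Most members lie between −0.5 and 0.5, and the members beyond 0.7 are named.

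The clustered linker histone genes differed in their balance in G9Gl, and the direction of their total turned with the scale. Their sum was 2313 ± 9.46 CPM in G9Gl against 2403 ± 83.2 in WT, a log2 ratio of −0.06, and the G9Gl libraries overlapped with WT. Per kb of annotated exon it was 1899.6 ± 6.28 against 1792 ± 61.3 CPM per kb, a log2 ratio of 0.08, and all 3 G9Gl libraries (1892 to 1904) lay above the highest WT library (1842). Of the 5 tested genes, 1 rose and 3 fell in G9Gl and 2 fell in S1S2. These were 80.0% and 40.0% of the tested H1 genes, against 45.9% and 48.9% of all genes. Hist1h1a (RefSeq H1f1) was at 323, 298 and 349 CPM in WT, 327, 327 and 334 CPM in S1S2, and 570, 538 and 577 CPM in G9Gl. Every G9Gl library was above all other libraries, while WT and S1S2 overlapped. The log2 fold change was 0.80 ± 0.07 (SE) in G9Gl against WT (adjusted p = 6.37e-10) and 0.77 ± 0.03 against S1S2 (adjusted p = 7.56e-10), and 0.03 ± 0.07 in S1S2 against WT (adjusted p = 0.706).

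Hist1h1d (H1f3), another somatic linker gene, went the other way. It was at 458, 430 and 423 CPM in WT, 417, 388 and 389 CPM in S1S2, and 291, 308 and 308 CPM in G9Gl. The 3 genotypes did not overlap. It fell by 0.53 ± 0.04 on the log2 scale in G9Gl (adjusted p = 2.6e-08). In S1S2 it fell by 0.14 ± 0.05 (adjusted p = 0.018), a difference that did not pass without WT replicate 1, at −0.11, without S1S2 replicate 2 or 3, at −0.12, or with a correction for GC content and length, at −0.02 (adjusted p = 0.727). Its annotated exons span 7425 bases, far past the stem-loop, so that its level per length is understated if the transcript ends there.

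Hist1h1b (H1f5) fell in both mutants. It was at 464, 468 and 463 CPM in WT, 405, 398 and 417 CPM in S1S2, and 340, 376 and 338 CPM in G9Gl. These ranges did not overlap either, with a log2 fold change of −0.19 ± 0.02 in S1S2 (adjusted p = 0.00146), and for G9Gl −0.40 ± 0.05 (adjusted p = 7.42e-07). Hist1h1e (H1f4), the H1 gene with the most reads, was at 688 ± 41.7 CPM in WT, 675 ± 28.0 in S1S2 and 618 ± 12.3 in G9Gl, and fell by 0.15 in G9Gl (adjusted p = 0.0141). Without WT replicate 1 or G9Gl replicate 2, it was at −0.14 and did not pass. Hist1h1c (H1f2) was at 490, 516 and 479 CPM on average in WT, S1S2 and G9Gl, and passed the test in neither mutant (adjusted p = 0.168 and 0.595), except in G9Gl with that correction, at −0.16.

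The order of Hist1h1a and Hist1h1b per length turned in G9Gl. Their annotated exons are almost equally long, 741 and 743 bases, and neither shares a 75-base stretch with another gene. They are not ranked here against Hist1h1e and Hist1h1c, whose models run 1153 and 840 bases past the stem-loop, and in CPM Hist1h1a was the lowest of the 5 in WT. In WT, Hist1h1b was at 626 ± 3.27 CPM per kb and Hist1h1a at 436 ± 34.6, and in S1S2 at 547 ± 12.9 and 444 ± 5.14. In G9Gl, Hist1h1a was at 758 ± 27.8 CPM per kb and Hist1h1b at 473 ± 28.7. The ratio of Hist1h1a to Hist1h1b was between 0.638 and 0.756 in WT, 0.802 and 0.823 in S1S2, and 1.44 and 1.71 in G9Gl. The 3 genotypes did not overlap in this ratio. A 2-sided exact permutation test gave p = 0.1 for each of 3 comparisons (adjusted p = 0.1), the smallest value that 3 against 3 libraries allow. As a share of H1 reads, Hist1h1a took 13.4% ± 0.71 in WT, 14.2% ± 0.359 in S1S2 and 24.3% ± 0.793 in G9Gl.

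The replacement linker histone H1f0, which lies outside the clusters and is known to accumulate in resting and differentiated cells, followed a different course. It was at 254, 231 and 298 CPM in WT, 99.3, 102 and 116 CPM in S1S2, and 317, 298 and 299 CPM in G9Gl. All S1S2 libraries were below the others. It was called in S1S2 with a log2 fold change of −1.30 ± 0.13 (adjusted p = 2.6e-10) and rose by 0.22 ± 0.11 in G9Gl (adjusted p = 0.0184). WT replicate 3, at 298.1 CPM, lay just below the lowest G9Gl library, at 298.5 CPM.

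**Figure D4:**
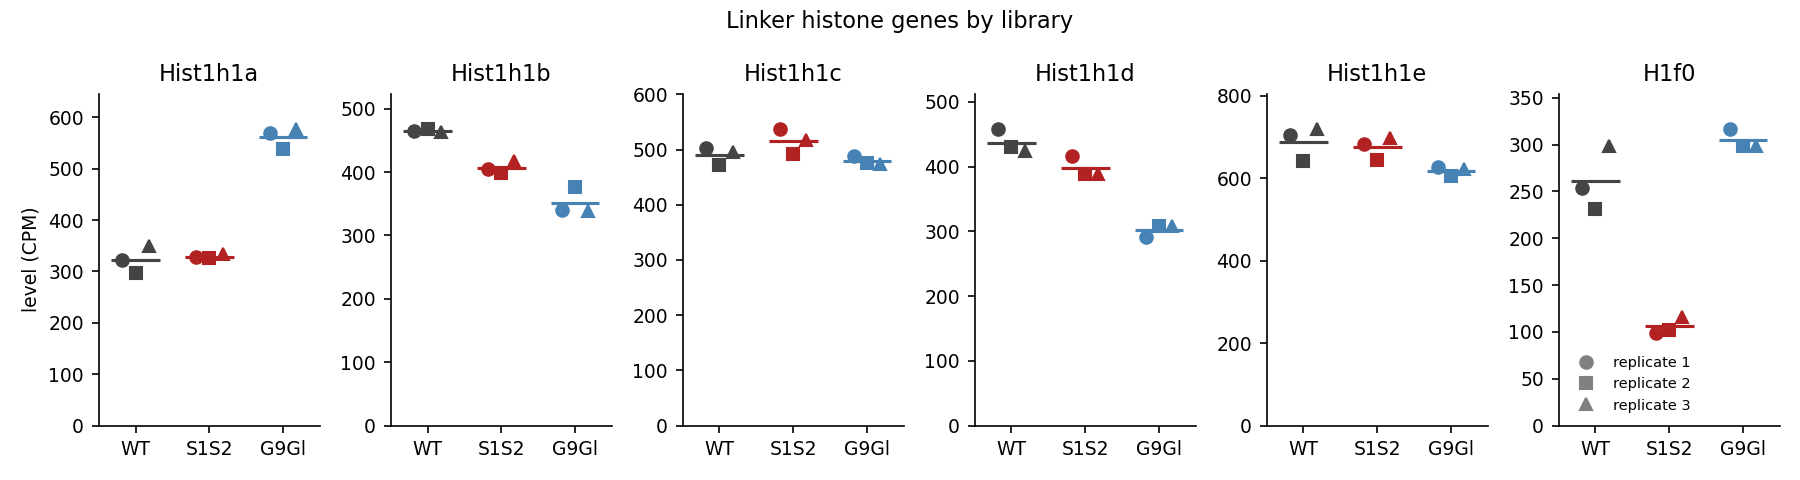
Level in CPM of the 5 expressed clustered H1 genes and of H1f0 in every library (points, shape gives the replicate number, lines are means of 3 libraries). Hist1h1a in G9Gl (538 to 577 CPM) and H1f0 in S1S2 (99.3 to 116 CPM) stand apart from the other genotypes.

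Among H2A genes, 8 of 16 tested rose and 1 fell in S1S2, and 7 rose and 2 fell in G9Gl, with a median of 0.21 on the log2 scale in both. These made up 56.2% of the tested H2A genes in each mutant, against 48.9% of all genes in S1S2 and 45.9% in G9Gl. With the GC and length correction, 4 rose and 2 fell in S1S2 and 5 rose and 3 fell in G9Gl, with medians of 0.08 and 0.13. Rises in S1S2 numbered 4 without S1S2 replicate 1 and 5 without S1S2 replicate 2 or 3 or WT replicate 3, where the median was 0.113. In G9Gl, 5 rose and 5 fell without WT replicate 3, at a median of 0.134, and the median was 0.073 without G9Gl replicate 2. The falls in G9Gl numbered 3 without G9Gl replicate 3 and 1 without WT replicate 1 or G9Gl replicate 1. The median GC content of H2A members was 64.3%, against 58.6% for all members. Hist1h2ak, the H2A gene with the highest level per annotated length, in a model that ends at the stop codon, was at 230 ± 19.2 CPM in WT, 254 ± 7.36 in S1S2 and 266 ± 8.56 in G9Gl. Its log2 fold change of 0.15 in S1S2 (adjusted p = 0.0278) became −0.09 with the correction (adjusted p = 0.056). It did not pass without WT replicate 3, at 0.08, or S1S2 replicate 1 or 3, at 0.15 and 0.13. In G9Gl the gene rose by 0.21 (adjusted p = 0.00309).

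Hist1h2ab, the second in level, rose in G9Gl. It was at 168, 172 and 141 CPM in WT, 176, 174 and 179 CPM in S1S2, and 209, 232 and 234 CPM in G9Gl. G9Gl lay above both other genotypes, with a log2 fold change of 0.49 ± 0.10 against WT (adjusted p = 4.67e-06), while S1S2 was at 0.14 ± 0.09 (adjusted p = 0.0809) and passed without WT replicate 2, at 0.19. Hist2h2ac, the third in level, was at 161 ± 20.2 CPM in WT, 178 ± 3.66 in S1S2 and 151 ± 8.71 in G9Gl. It did not pass against WT (adjusted p = 0.106 and 0.266) and was lower in G9Gl than in S1S2, with a log2 value of −0.24 ± 0.05 (adjusted p = 0.00789), or −0.11 with the correction (adjusted p = 0.055). Against WT it passed in S1S2 without WT replicate 1, at 0.21, and in G9Gl without WT replicate 3, at −0.19.

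The following H2A genes were chosen after their values were seen. Hist2h2ab was at 7.38, 6.81 and 7.83 CPM in WT, 10.9, 10.1 and 9.82 CPM in S1S2, and 8.14, 7.14 and 6.13 CPM in G9Gl. It rose in S1S2 by 0.49 ± 0.07 (adjusted p = 0.00143) and was at −0.04 in G9Gl (adjusted p = 0.786). Hist1h2ao had the highest fold change of the members, with log2 values of 1.40 ± 0.45 in S1S2 and 1.33 ± 0.34 in G9Gl (adjusted p = 0.0141 and 0.0172). Its level was 0.205 CPM in WT, with WT replicate 1 at the floor of 3 counts, and 93.1% of its stretches occur in other genes. Without WT replicate 1, the values were 1.04 and 0.97 and did not pass, nor did those in S1S2 without S1S2 replicate 1 or 3, at 1.22 and 1.26.

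Of 15 tested H2B genes, 3 rose and 3 fell in S1S2, and 2 rose and 3 fell in G9Gl. These were 40.0% and 33.3% of the tested H2B genes, against 48.9% and 45.9% of all genes. With the correction, 2 rose and 4 fell in S1S2, and 0 rose and 6 fell in G9Gl. Without WT replicate 1, 4 rose and 2 fell in S1S2, and 1 rose and 2 fell in G9Gl. Without WT replicate 3, 3 rose and 3 fell in S1S2, and 1 rose and 5 fell in G9Gl. Rises in G9Gl also numbered 1 without WT replicate 2 or G9Gl replicate 2, and 0 without G9Gl replicate 3. Hist1h2bf, chosen after its values were seen, was at 10.7, 9.98 and 9.50 CPM in WT, 5.74, 4.41 and 5.92 CPM in S1S2, and 10.3, 9.94 and 9.20 CPM in G9Gl. All S1S2 libraries were below the others, which overlapped. It fell by 0.92 ± 0.14 in S1S2 (adjusted p = 4.2e-06), short of the fold change of 2, and was called there with the GC and length correction. In G9Gl it was at −0.04 ± 0.07 against WT (adjusted p = 0.802) and 0.88 ± 0.14 against S1S2 (adjusted p = 5.32e-06). Of its stretches 56.6% occur in other genes.

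Hist3h2bb-ps (chr11), annotated as a pseudogene, was the sole member called. It was at 3.97, 4.13 and 4.03 CPM in WT, 9.05, 7.90 and 7.14 CPM in S1S2, and 2.95, 3.02 and 3.07 CPM in G9Gl. The 3 genotypes did not overlap. It rose in S1S2 by 0.99 ± 0.10 (adjusted p = 2.32e-06), fell by 0.42 ± 0.02 in G9Gl (adjusted p = 0.0132), and was at −1.41 ± 0.10 in G9Gl against S1S2 (adjusted p = 3.46e-08). The SE of 0.02 rests on the spread of few libraries, at 125 to 129 counts in WT and 84 to 94 in G9Gl, and can understate the error. Hist3h2a, which lies 172 bases away on the other strand, showed values of 0.43 ± 0.17 in S1S2 (adjusted p = 0.0497), and for G9Gl −0.34 ± 0.18 (adjusted p = 0.145). The first did not pass in 8 of 9 fits that left out a library, with values from 0.32 to 0.46. Hist3h2a was lower in G9Gl than in S1S2, at −0.77 ± 0.08 (adjusted p = 0.00174). The level of Hist3h2a was 2.28 ± 0.488 CPM in WT, and the third gene of this cluster, Hist3h2ba, held at most 4 counts.

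The 3 H2B genes with the highest level per annotated length changed little. The models of Hist1h2bn and Hist2h2bb end at the stop codon, so this order rests on the annotation. Hist1h2bn was at 392 ± 27.6, 383 ± 4.45 and 367 ± 4.1 CPM in WT, S1S2 and G9Gl, with log2 values of −0.03 and −0.10 (adjusted p = 0.561 and 0.102). It passed in S1S2 with the correction, at −0.17, and in G9Gl without WT replicate 3, at −0.13. Hist2h2bb was at 316 ± 15.6, 320 ± 8.49 and 282 ± 12.2 CPM and fell by 0.16 in G9Gl (adjusted p = 0.00709), but did not pass without WT replicate 1, at −0.13. Hist1h2bb was at 417, 380 and 388 CPM in WT, 343, 351 and 339 CPM in S1S2, and 430, 424 and 448 CPM in G9Gl. No genotypes overlapped, with log2 values of −0.20 ± 0.04 in S1S2 (adjusted p = 0.000963), and for G9Gl 0.13 ± 0.05 (adjusted p = 0.0163). The rise in G9Gl did not pass without WT replicate 2 or G9Gl replicate 3, at 0.11, or with the correction, at 0.06. Hist2h2be, a long transcript with no shared stretch, was at 1.89 ± 0.412, 1.61 ± 0.228 and 2.12 ± 0.302 CPM and passed in neither mutant (adjusted p = 0.374 and 0.537).

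H2A and H2B genes often lie head to head around a common promoter region. Such pairs, with starts on opposite strands and 172 to 305 bases between the genes, numbered 13, of which 11 had both genes tested. The log2 fold change of the H2B gene was below that of its H2A partner in 9 of the 11 pairs in S1S2, in 7 in G9Gl and in 5 between the mutants. The pairs described here were chosen after their values were seen. Hist1h2ad, 184 bases from Hist1h2bf, was at 30.5, 32.4 and 25.4 CPM in WT and 30.7, 30.9 and 30.0 CPM in S1S2, with a log2 fold change of 0.05 ± 0.11 (adjusted p = 0.692) beside −0.92 for its partner. Hist1h2ag and Hist1h2bj, 1 of the 2 pairs with the H2B gene above its partner in S1S2, had values of 0.31 and 0.37 there and −0.24 and −0.06 in G9Gl. Hist1h2bj was at 162 ± 15.0, 210 ± 8.67 and 156 ± 14.6 CPM in WT, S1S2 and G9Gl and rose in S1S2 (adjusted p = 0.000207). The difference between partners was not tested. The CCAAT boxes of the pair with Hist1h2bf are shown in capitals, each in the direction of its own gene.
Hist1h2ad (chr13:23574310-23574334, plus strand): gaagtcttgcCCAATcaacgtgcgc
Hist1h2bf (chr13:23574339-23574363, minus strand): ttttcctagaCCAATgagaagcatt
Both boxes lie between the starts of the genes, and the windows do not overlap.

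**Figure D5:**
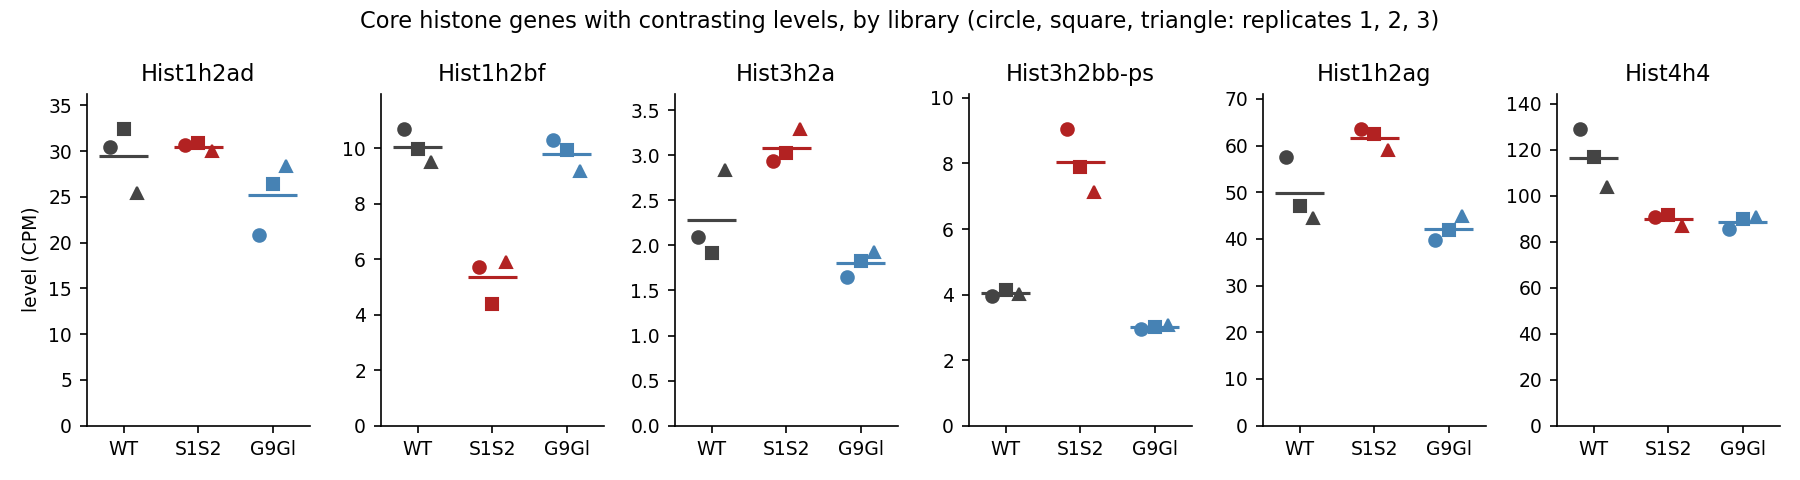
Level in CPM of 6 core histone genes in every library (points, shape gives the replicate number, lines are means of 3 libraries). Hist1h2bf in S1S2 (4.41 to 5.92 CPM) lies below the other genotypes while its neighbour Hist1h2ad overlaps with WT, and Hist3h2bb-ps separates all 3 genotypes.

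Of 11 tested H3 genes, 4 rose and 1 fell in S1S2, and 3 rose and 2 fell in G9Gl. These were 45.5% of the tested H3 genes in each mutant, against 48.9% and 45.9% of all genes. Without WT replicate 1, 7 rose and 1 fell in S1S2, and 5 rose and 1 fell in G9Gl. Without WT replicate 3, 3 rose and 1 fell in S1S2, and 2 rose and 3 fell in G9Gl. The medians on the log2 scale were 0.138 in S1S2 and 0.02 in G9Gl, and became 0.042 and −0.048 without WT replicate 3 and 0.225 and 0.109 without WT replicate 1. Falls in G9Gl numbered 1 without G9Gl replicate 2 or 3 and 3 without WT replicate 2. With the correction, 1 rose and 2 fell in S1S2, and 3 rose and 2 fell in G9Gl. The medians then turned to −0.025 and −0.057, against −0.013 and −0.11 over all genes. Hist1h3c, the highest per annotated length, was at 302, 271 and 246 CPM in WT, 333, 311 and 310 CPM in S1S2, and 314, 308 and 306 CPM in G9Gl. Both mutants lay above WT, by 0.22 ± 0.09 in S1S2 (adjusted p = 0.00423), and for G9Gl 0.18 ± 0.09 (adjusted p = 0.0167). With the correction these were 0.13 and 0.08 and did not pass, nor did G9Gl without WT replicate 3, at 0.11. Hist1h3a was at 175, 152 and 131 CPM in WT, 185, 188 and 187 CPM in S1S2, and 201, 202 and 201 CPM in G9Gl, and rose in both, by 0.29 (adjusted p = 0.0021) and 0.40 (adjusted p = 0.000137). Hist1h3b was at 190 ± 11.8, 202 ± 9.34 and 223 ± 7.04 CPM and rose in G9Gl by 0.23 (adjusted p = 0.00089). WT replicate 3 was the lowest library for each of these 3 genes.

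Hist1h3d and Hist1h3g, chosen after their values were seen, fell in 1 mutant or both. Hist1h3d was at 107 ± 12.6 CPM in WT, 83.3 ± 1.42 in S1S2 and 95.3 ± 0.979 in G9Gl, with log2 values of −0.36 ± 0.10 (adjusted p = 0.000129) and −0.17 ± 0.10 (adjusted p = 0.0344). The fall in G9Gl did not pass without WT replicate 1, at −0.08 (adjusted p = 0.281), or without any 1 of the G9Gl replicates, at −0.16 to −0.18. Hist1h3g was at 79.3 ± 10.9, 89.2 ± 2.59 and 64.2 ± 3.77 CPM, and fell in G9Gl by 0.31 ± 0.12 (adjusted p = 0.00268). This log2 value ranged from −0.39 to −0.19 when 1 library was left out. In S1S2 Hist1h3g was at 0.17 (adjusted p = 0.0698) and passed without WT replicate 1, at 0.27.

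H4 genes, whose median of shared stretches of 24.6% was the lowest of the core types, gave counts that turned on the WT libraries. Of 13 tested, 1 rose and 1 fell in S1S2, and 4 fell in G9Gl. These were 15.4% and 30.8% of the tested H4 genes, against 48.9% and 45.9% of all genes. In G9Gl, 9 fell without WT replicate 3, 7 with the correction, and 2 without WT replicate 1 or G9Gl replicate 1. In S1S2, 3 rose without WT replicate 1, 3 fell without WT replicate 3, and 0 rose and 4 fell with the correction. The 3 highest per annotated length were Hist1h4h, Hist1h4k and Hist1h4f, with levels in WT of 1022 ± 147, 1109 ± 163 and 852 ± 82.1 CPM per kb. The WT libraries of Hist1h4h overlapped with those of both others, while those of Hist1h4f all lay below those of Hist1h4k. This order rests on the annotation, since the models of Hist1h4d and Hist1h4c run 770 and 454 bases past the stem-loop, against 46 and 33 for Hist1h4h and Hist1h4f, and their levels per length are understated if the transcripts end there. The model of Hist1h4k ends at the stop codon, so its length holds no sequence after it. Hist1h4h was at 480 ± 69.2, 515 ± 14.0 and 480 ± 23.9 CPM in WT, S1S2 and G9Gl and passed in neither mutant (adjusted p = 0.277 and 1.0). Hist1h4k was at 346 ± 50.8, 314 ± 11.7 and 304 ± 10.8 CPM and fell in G9Gl by 0.19 (adjusted p = 0.045). Hist1h4f was at 333 ± 32.1, 328 ± 13.5 and 299 ± 5.88 CPM and fell in G9Gl by 0.15 (adjusted p = 0.032). For both, the libraries of G9Gl and WT overlapped. Neither passed without WT replicate 1, at −0.07 and −0.09. Hist1h4k also did not pass without S1S2 replicate 1 or 2 or G9Gl replicate 1 or 2, at −0.19 to −0.17, and Hist1h4f without WT replicate 2 or G9Gl replicate 1 or 3, at −0.15 to −0.14.

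The H4 genes with little shared sequence gave single-gene values. Hist1h4d, with the most H4 reads, was at 787 ± 45.3, 766 ± 6.85 and 745 ± 21.4 CPM and did not pass in either mutant (adjusted p = 0.503 and 0.168). It passed in both with the correction, at −0.11 and −0.29, and in G9Gl without WT replicate 3, at −0.11. Hist2h4, with no shared stretch, was at 175, 156 and 143 CPM in WT, 172, 173 and 189 CPM in S1S2, and 141, 153 and 130 CPM in G9Gl. It was lower in G9Gl than in S1S2, at −0.34 ± 0.08 (adjusted p = 0.000487), while WT overlapped with both. Its rise of 0.17 in S1S2 (adjusted p = 0.047) did not pass with the correction, nor without WT replicate 2 or 3 or any 1 of the S1S2 replicates, at 0.10 to 0.20. Its value of −0.16 in G9Gl (adjusted p = 0.0584) passed without WT replicate 3 or G9Gl replicate 2, at −0.23. Hist4h4 was at 129, 117 and 104 CPM in WT, 90.9, 91.7 and 87.0 CPM in S1S2, and 85.4, 90.0 and 90.9 CPM in G9Gl. All WT libraries lay above the mutants, and it fell by 0.37 ± 0.09 in S1S2 (adjusted p = 8.17e-05), and for G9Gl 0.39 ± 0.09 (adjusted p = 4.57e-05). The mutants overlapped (adjusted p = 0.829).

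Members were also summed in groups, linked in chains wherever at least 50% of the stretches of 1 of them occur in the other, which gave 8 groups covering 38 members. A group can therefore hold members that share less of their own sequence, such as Hist1h2ac with 11.1% and Hist1h4c with 16.9% shared with any gene, and the sums are not of near-identical copies throughout. The linked group of 12 H2A genes of the Hist1 cluster, which leaves out Hist1h2ak, Hist1h2aa and Hist1h2al, was at 0.16 in S1S2 (adjusted p = 0.0546), and rose by 0.21 for G9Gl (adjusted p = 0.0114). The group of 6 H2B genes was at 0.11 and −0.09 against WT (adjusted p = 0.0658 and 0.121) and was lower in G9Gl than in S1S2, at −0.20 (adjusted p = 0.00157). The group of 6 H4 genes did not pass in any comparison, with log2 values between −0.06 and 0.02. In this form 34 units were tested, 7 rose and 6 fell in S1S2, and 6 rose and 9 fell in G9Gl.

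Medians by position differed between the clusters. In the Hist1 cluster, the 16 tested members of the first block (chr13:21715763-21837530) had medians of 0.12 in S1S2 and 0.00 in G9Gl on the log2 scale. The 5 of the second block (chr13:22035164-22043676), which holds Hist1h2ag and Hist1h2bj, had medians of 0.31 and −0.06 and one of −0.43 between the mutants, and the 27 of the third (chr13:23531050-23764406) of 0.05 and −0.03. The 13 other genes tested in this stretch had medians of −0.06 and 0.01, and all 596 tested genes of chromosome 13 of 0.00 and 0.05. The 8 tested Hist2 genes had medians of 0.08 and −0.13, and all 893 tested genes of chromosome 3 of 0.10 and −0.02. The 2 tested Hist3 genes, Hist3h2a and Hist3h2bb-ps, had medians of 0.71 and −0.38, and of −1.09 between the mutants. All 1226 tested genes of chromosome 11 had medians of 0.01, 0.04 and 0.02 in these comparisons.

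Histone genes outside the clusters, which make replacement variants throughout the cell cycle and carry polyadenylated mRNA for the most part, are given for comparison. Of 11 tested, 3 rose and 5 fell in S1S2, and 1 rose and 6 fell in G9Gl, with medians of −0.09 and −0.16. Of all genes, 48.9% rose or fell in S1S2 and 45.9% in G9Gl. H3f3a and H3f3b, which encode the replacement variant of H3, fell in both mutants by 0.30 and 0.24 in S1S2 (adjusted p = 3.73e-05 and 0.000204) and by 0.42 and 0.26 in G9Gl (adjusted p = 7.9e-07 and 9.08e-05). These and the next 2 genes were chosen after their values were seen. H2afx, whose product marks DNA breaks when phosphorylated, rose by 0.37 in S1S2 (adjusted p = 0.000105), and fell by 0.34 for G9Gl (adjusted p = 0.000231). H2afy2, a macroH2A gene, fell by 0.40 and 0.84 (adjusted p = 1.21e-05 and 1.3e-09).

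Genes that make and process histone mRNA had log2 values from −0.39 to 0.30 in S1S2 and from −0.47 to 0.36 in G9Gl. Of 20 tested, 2 rose and 6 fell in each mutant, and none was called (edgeR). The shares of all genes that rose or fell, 48.9% in S1S2 and 45.9% in G9Gl, stand beside all counts of this paragraph. Npat, the coactivator of clustered histone genes, was at 147 ± 5.51 CPM in WT, 126 ± 2.86 in S1S2 and 129 ± 4.75 in G9Gl, and fell by 0.23 and 0.19 (adjusted p = 0.000353 and 0.00208). Slbp, the stem-loop binding protein, was at 156 ± 9.27, 141 ± 3.96 and 134 ± 4.24 CPM and fell by 0.15 and 0.21 (adjusted p = 0.0171 and 0.00127). The ends of these ranges, chosen after their values were seen, were Pou2f1, Tut4 and Lsm11. Pou2f1, the octamer-binding factor, was at −0.10 in S1S2 (adjusted p = 0.109) and fell by 0.47 in G9Gl (adjusted p = 8.19e-07). Tut4, a terminal uridylyltransferase, fell by 0.39 and 0.30 (adjusted p = 3.75e-05 and 0.000399). Lsm11, part of the U7 snRNP, rose by 0.30 and 0.36 (adjusted p = 0.000664 and 0.000111). Of 12 histone chaperone genes, 1 rose and 5 fell in S1S2, and 2 rose and 6 fell in G9Gl. Of 20 S phase and replication genes, 8 rose and 3 fell in S1S2, and 3 rose and 8 fell in G9Gl, with medians of 0.05 and −0.04. Between the mutants, 2 of these genes were higher and 12 lower in G9Gl, at a median of −0.17, against 26.9% and 26.5% of all genes. Their summed level was 3617 ± 68.3 CPM in WT, 3747 ± 66.2 in S1S2 and 3408 ± 74.2 in G9Gl, and the part of S phase in the histone levels was not tested.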

How the data were processed

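The authors deposited a table of whole-number counts, 1 row per Ensembl gene, with no normalization. According to the methods they gave, reads of 75 bases from both ends of stranded total RNA fragments, depleted of rRNA, were trimmed. They then aligned them to GRCm38 with STAR 2.5.2b using the settings TEtranscripts advises, and counted genes with that tool. STAR and the build also stand in the submitters' processing notes. The annotation release and the strand setting of the counting are not given in the sources used here.

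Of 47937 genes, 47224 were matched by identifier to GENCODE M21. Hist1h2bm and Hist1h2bh were not analysed here. Symbols of the lists were updated (Zcchc6 to Tut7, Zcchc11 to Tut4). Levels are CPM scaled by TMM factors, per kb of merged exon length where stated. All 9 libraries entered a single quasi-likelihood fit of edgeR 4.0.16 in R 4.3.3 after filterByExpr, tested on simulated data, and adjusted p-values in the text come from it. SE come from log2 CPM with a prior count of 2. The common biological coefficient of variation was 5.36%. SD and SE measure the spread between libraries. The floor of 3 counts covers counting error only, as reads are not independent molecules.

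The members and lists were chosen with earlier results of these data known. Named members were the 3 of each type highest per annotated length, called members, testis genes and members with under 10% shared sequence. Outside the clusters they were the targeted genes, called genes of the lists, Npat and Slbp. Others are stated to be chosen after their values were seen, and marker, overlapping and listed genes serve as background. Alternatives were DESeq2 1.42.0, its size factors, no composition factor, other filters and thresholds, glmTreat, fits of fewer libraries, a replicate block, a spline correction for GC content and length, and summed copies.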

Additional observations from a re-analysis of the deposited data

Results flagged for a closer look

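Members that rose in one mutant and fell in the other, and that also differed between the mutants in the direct contrast of edgeR at an adjusted p of at most 0.01, numbered 3. The contrasts with WT share the WT libraries. The share of all genes that meet this rule was not counted, so the number is not read as a trait of the members. Hist3h2bb-ps was lower in G9Gl than in S1S2 by a log2 value of −1.41, Hist1h2ag by −0.55 and Hist1h2bb higher by 0.33. For Hist1h2ag the levels were 57.6, 47.0 and 44.6 CPM in WT, 63.5, 62.4 and 59.1 CPM in S1S2, and 39.7, 41.9 and 44.8 CPM in G9Gl. G9Gl and WT overlapped there, the fall in G9Gl did not pass without WT replicate 1 or G9Gl replicate 1, at −0.12 and −0.20, and 77.6% of its stretches of 75 bases occur in other genes. With 3 libraries per genotype, no test of outlying samples was run.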

How the results depend on the processing

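The number of called members in S1S2 against WT was 0 and became 1 with the GC and length correction, with or without the replicate block (Hist1h2bf). Leaving out 1 library gave 0 to 1, with Hist3h2bb-ps called without WT replicate 2 or S1S2 replicate 3, and Hist1h2ao without S1S2 replicate 2. At an adjusted p of at most 0.05 with no fold cutoff, 24 members passed in S1S2 and 27 in G9Gl against WT, and 24 between the mutants. The median log2 fold change between the mutants, −0.095, ranged from −0.107 to −0.048 when 1 library was left out, with −0.048 reached without G9Gl replicate 1. The same range was 0.039 to 0.152 for S1S2 and −0.102 to 0.003 for G9Gl against WT, with the ends reached without WT replicates 3 and 1, and the latter changed sign. Summed levels ranged from −0.024 to 0.089 and −0.071 to 0.042 in these comparisons. With the correction, with or without the block, Hist1h2ak in S1S2 against WT turned to −0.087, and between the mutants Hist1h4k turned to 0.25 and Hist1h2bn to 0.13. The cause was not tested. The other 141 of 150 values of the called counts, medians and summed levels under alternatives moved by less than the spread between replicates or, for counts, less than 1.5 times. Of those for single genes, 1517 kept direction and side of the threshold, while 62 passed the threshold anew, 85 no longer passed and 6 turned, as given. Replicate numbers did not pair the libraries, as same-numbered libraries correlated at −0.0686 to 0.124 in their deviations. With the replicate block, called members stayed at 0, 0 and 1, the medians were 0.10, −0.039 and −0.093, and members at an adjusted p of at most 0.05 numbered 17 higher and 8 lower, 14 and 15, and 6 and 21. Members near the floor of 3 counts, such as Hist1h2ao, are limited by depth.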
